A study of Mus musculus with 16 samples.

Results

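This experiment compared mdx gastrocnemius muscle that had received an adeno-associated virus (AAV) carrying Galgt2 with the opposite gastrocnemius, which had received phosphate-buffered saline (PBS). Its members were chosen by sample title and are 4 of the 16 arrays of the series, 2 labelled AAV-Galgt2-Treated and 2 labelled PBS-Treated. All 4 come from male mice aged 2 months with the strain label C57BL/10J that lack dystrophin, and the controls therefore carry the mdx defect as well. Delivery is described as postnatal. The promoter that drives Galgt2 in the virus, the serotype, the dose, the number of mice and which AAV-Galgt2 array shares a mouse with which PBS array are not given in the sources used here, so the p-values below speak only for the scatter among these 4 arrays, part of which may be technical. The PBS muscles received no virus, so an effect of Galgt2 cannot be told apart from an effect of AAV itself. RNA from whole muscle, 25 ng per array, was amplified and hybridised to a mouse array of 45101 probe sets. The other muscle arrays compared below are untreated mdx muscle (C57BL/10J) and Galgt2 transgenic mdx muscle (C57BL/10J x C57BL/6J), 2 arrays each, also from males aged 2 months. The fit of 12 muscle arrays also holds wild-type muscle and Galgt2 transgenic muscle without the mdx label, 2 arrays each, aged 2 months. These add to its estimate of scatter. The promoter of that transgene is likewise not given in the sources used here.

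Galgt2, listed in the annotation as B4galnt2, encodes an enzyme that caps glycans with N-acetylgalactosamine (GalNAc). In normal muscle the glycan it makes is concentrated at the neuromuscular junction, where it is found on dystroglycan, the membrane protein that links laminin outside the fibre to dystrophin or utrophin inside it. Muscle without dystrophin loses that link along the fibre, and its fibres tear, regenerate and become surrounded by inflammatory cells and collagen. Overexpression of Galgt2 is known as a way to protect mdx muscle, with synaptic proteins such as utrophin and laminin chains then found outside the junction.

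The deposited values are intensities, analysed as log2. Array medians over all probe sets ran from 25.35 to 25.71 in the second muscle array set, which holds these 4 arrays, and from 57.69 to 63.95 in the first, and no level was compared across the 2 sets. PBS replicate 1 stood apart from the other 3 arrays. Over 18194 genes, each represented by its brightest probe set, its log2 values correlated with the other arrays at r from 0.977 to 0.984, whereas the 3 pairs without it lay between 0.989 and 0.993. Leaving out 1 of the 4 arrays moved the median by over 1.5 times or across 0 for 34 of the 42 gene lists, and those values are given beside each median printed below. Skeletal muscle genes were bright in all 4: Acta1 (skeletal actin) lay between 12.68 and 12.93, Myh4 (fast myosin) between 12.94 and 13.20, Mylpf (fast regulatory light chain) between 12.88 and 13.05, and Ckm (muscle creatine kinase) between 11.32 and 11.65 on the log2 scale, matching the labelled tissue.

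B4galnt2 was the gene of smallest p. Its log2 intensity was 10.54 and 10.56 in the AAV-Galgt2 arrays and 5.27 and 4.26 in the PBS arrays. Both treated muscles were therefore far above both controls, by 5.78 ± 0.35 on the log2 scale or 55.0-fold (here and below the error is the standard error from limma, n = 2 arrays a group, and differences are AAV-Galgt2 minus PBS). The adjusted p was 0.0803 in the fit of these 4 arrays and 0.233 in a fit of all 12 muscle arrays, in which the 2 untreated mdx arrays spread widely (3.86 and 7.78). It passed 0.05 when the arrays were shifted to the same median (0.000501), when only genes above the median level were tested (0.0356) and with an intensity trend and robust prior (0.0116). Without PBS replicate 1 the difference was 6.29, and without PBS replicate 2 it was 5.27. The other 3 probe sets annotated to B4galnt2 lay between 2.96 and 3.79 in all 4 arrays, with differences of -0.01, -0.01 and -0.24. The array does not separate transcripts of the virus from those of the mouse's own gene.

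Dmd, the dystrophin gene that carries the mdx mutation, read 8.65 and 8.71 with AAV-Galgt2 and 8.82 and 8.52 with PBS. The groups overlapped, and the difference of 0.01 ± 0.20 turned to -0.17 when the arrays were shifted to the same median and to -0.08 after quantile normalization. A second Dmd probe set of similar brightness gave -0.03, and both remaining ones, which were dimmer, gave -0.81 and -0.98. Utrn encodes utrophin, the close relative of dystrophin that can take its place at the membrane. It read 12.04 and 12.15 with AAV-Galgt2 and 11.87 and 11.93 with PBS, a difference of 0.20 ± 0.18 (0.17 without PBS replicate 1) with an interval from -0.24 to 0.63. The groups did not overlap for this Utrn probe set, but the interval holds 0, so a difference was not detectable with 2 arrays a group. The remaining Utrn probe sets, which were dimmer, gave -0.03 and 0.04, and their groups overlapped.

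**Figure D1:**
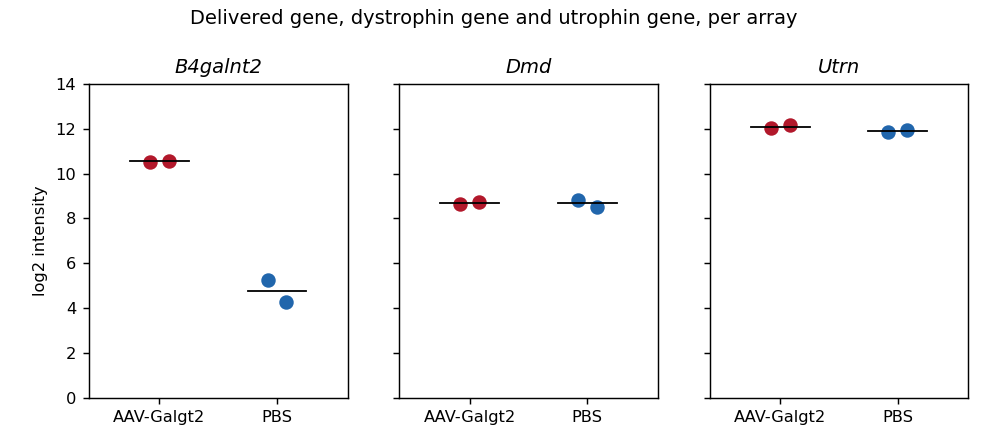
Log2 intensity of B4galnt2, Dmd and Utrn in each of the 4 arrays (points), with group means (bars). B4galnt2 stands at 10.54 and 10.56 with AAV-Galgt2 against 5.27 and 4.26 with PBS, while Dmd overlaps between the groups and Utrn differs by 0.20.

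No gene was called at an adjusted p under 0.05 among 18194 (0%, limma with Benjamini-Hochberg adjustment). At an unadjusted p under 0.05 there were 1351 genes higher with AAV-Galgt2 (7.43%) and 517 lower (2.84%). Both AAV-Galgt2 arrays exceeded both PBS arrays for 4598 genes (25.3%) and lay below both for 3379 (18.6%), and these shares are the background for the counts below. An exact permutation of 2 arrays against 2 cannot go below p = 0.333. The median difference over all genes was 0.03. Shifting the arrays to the same median lowered every difference by 0.18 and that median to -0.15, so a difference between 0 and 0.18 changes sign under that scaling.

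Apart from B4galnt2, the 9 genes of smallest p with higher values each have an adjusted p of 0.460. They were taken among genes whose groups do not overlap and whose higher group lies above the median level. They were Comp (2.03 ± 0.29), a cartilage and tendon matrix protein; Hivep3 (1.62 ± 0.21), a zinc finger transcription factor; Col5a1 (1.61 ± 0.24), a fibrillar collagen chain; Col4a2 (1.56 ± 0.21) and Hspg2 (1.40 ± 0.19), which encode a type IV collagen chain and perlecan; Myom3 (1.45 ± 0.22), a protein of the sarcomere M band; Nr1d1 (1.37 ± 0.18), a repressor of the circadian clock; Mss51 (1.29 ± 0.19), a mitochondrial protein of muscle; and Flt4 (1.20 ± 0.17), a receptor for vascular endothelial growth factors. Among the 10 with lower values, taken by the same rule, Lrmda (-2.93 ± 0.37), Lep (-2.02 ± 0.30), the hormone leptin, and Ces1d (-1.92 ± 0.23), a lipid-cleaving carboxylesterase, showed the widest differences. The others were Orm1 (-1.79 ± 0.36) and Hp (-1.10 ± 0.22), which encode the plasma proteins orosomucoid and haptoglobin, Adipoq (-1.53 ± 0.27), the hormone adiponectin, Nnat (-1.50 ± 0.23), neuronatin, Glb1l2 (-1.25 ± 0.26), Prkar2b (-1.06 ± 0.22), a regulatory subunit of protein kinase A, and Mllt10 (-1.02 ± 0.22), a chromatin cofactor.

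Basement membrane genes stood higher in the muscles given AAV-Galgt2. Of 22 measured genes for laminin chains, nidogens, perlecan, agrin and the collagens of the basement membrane, 18 had a positive difference, 14 had both AAV-Galgt2 arrays above both PBS arrays and 1 the reverse. Their median was 0.38 (0.40 without PBS replicate 1) beside 0.03 for all genes, and 0 of 22 were called. Differences also varied with the span of a gene in the genome, over 9074 genes above the median level in 5 groups by span. The medians were 0.0039, 0.088, 0.063, 0.062 and 0.13 from the shortest to the longest span, without a steady rise. In the longest group PBS replicate 1 lay 0.13 below the mean of the 4 arrays. The 3′ minus 5′ difference of the actin control probe sets was 1.20 and 0.87 with AAV-Galgt2 and 1.12 and 1.27 with PBS (log2), and that of Gapdh lay between 0.28 and 0.36 in the 4 arrays. The part of gene span and RNA quality in the values of the laminin, perlecan and collagen genes was not tested. Hspg2 (perlecan) read 9.10 and 9.30 against 7.88 and 7.73 (2.64-fold). Lamb2, the laminin beta chain concentrated at the synapse, read 7.69 and 7.81 against 6.56 and 6.71, a difference of 1.12 ± 0.18 (1.04 without PBS replicate 1). For both genes even the lower AAV-Galgt2 array stood well above the higher PBS array. Agrn, which encodes the synaptic organiser agrin, read 8.58 and 8.76 against 7.46 and 7.70 (1.09 ± 0.20, and 0.97 without PBS replicate 1). A second, much dimmer Agrn probe set gave -0.21. Lamc1 (laminin gamma 1) differed by 0.96 ± 0.26, Col18a1 by 1.12 ± 0.20 and Col15a1 by 1.18 ± 0.25, the last 2 being collagens of vascular and muscle basement membranes. Lama2, the main laminin alpha chain of adult muscle, overlapped between the groups, at 9.76 and 9.64 against 9.80 and 9.29. Lama5 differed by 0.39 ± 0.18 and Lama4 by 0.49 ± 0.18, and both had no overlap between the groups, while Lama1 (-0.12 ± 0.31) and Lama3 (-0.11 ± 0.19) were dim and overlapped.

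Col4a1 and Col4a2 encode the chains that assemble into the common type IV collagen trimer, and they lie head to head on one chromosome. Their start regions are shown because both genes were higher in both AAV-Galgt2 arrays and their annotated starts lie 21 bp apart. The sequences are those of RefSeq for GRCm38.p6, written 5′ to 3′ on each gene's own strand. Col4a1 is on the minus strand, at chr8:11312777-11313076, and Col4a2 on the plus strand, at chr8:11312555-11312854. Capitals mark the 78 bases that both windows share, in opposite orientation.
Col4a1: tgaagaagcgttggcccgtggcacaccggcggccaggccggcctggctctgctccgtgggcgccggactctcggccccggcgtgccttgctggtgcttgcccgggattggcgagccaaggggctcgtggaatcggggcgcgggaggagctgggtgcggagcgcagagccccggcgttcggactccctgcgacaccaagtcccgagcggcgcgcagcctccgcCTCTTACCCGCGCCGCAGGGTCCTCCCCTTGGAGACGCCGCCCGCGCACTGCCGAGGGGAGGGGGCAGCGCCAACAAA
Col4a2: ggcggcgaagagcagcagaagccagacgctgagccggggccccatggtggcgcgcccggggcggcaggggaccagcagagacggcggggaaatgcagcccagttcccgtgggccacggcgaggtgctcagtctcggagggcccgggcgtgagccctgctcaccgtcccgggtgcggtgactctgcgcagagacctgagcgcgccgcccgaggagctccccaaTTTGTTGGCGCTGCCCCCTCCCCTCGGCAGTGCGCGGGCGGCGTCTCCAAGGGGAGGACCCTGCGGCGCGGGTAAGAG
Col4a2 read 10.13 and 10.09 with AAV-Galgt2 against 8.37 and 8.74 with PBS, 2.94-fold. Col4a1 read 10.54 and 10.46 against 9.73 and 9.60, a difference of 0.83 ± 0.18, and a second, dimmer Col4a1 probe set differed by 1.47. Neither gene's arrays overlapped between the groups. Col4a5 (0.47 ± 0.22) and Col4a4 (0.38 ± 0.27), chains of other type IV trimers, had smaller differences, and the arrays of Col4a4 overlapped.

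Genes of the neuromuscular junction had one of the highest list medians, 0.67 (0.50 without PBS replicate 1). Of 19 measured, 17 had a positive difference, 12 had no overlap in the higher direction and 2 in the lower, and 0 were called. Agrn belongs to this list as well as to the basement membrane list. Ache encodes the acetylcholinesterase of the synaptic cleft and read 6.00 and 5.76 against 4.23 and 4.72 (1.41 ± 0.23). Among the subunits of the acetylcholine receptor, Chrne, the adult subunit, read 6.40 and 6.51 against 5.35 and 5.74 (0.91 ± 0.21). Chrng, the embryonic subunit that regenerating or denervated fibres express, read 5.99 and 6.34 against 4.73 and 5.61 (1.00 ± 0.33). Both treated arrays were above both controls for these 3 genes. Chrna1 (8.97 and 8.94 against 7.18 and 8.65) and Erbb3 (8.93 and 8.70 against 7.09 and 8.18), a neuregulin receptor, were lowest in PBS replicate 1, and without that array their differences were 0.30 and 0.63. Etv5, a transcription factor of synaptic nuclei, read 8.04 and 8.56 against 6.02 and 7.46, and Lrp4, the agrin receptor, 9.61 and 9.54 against 8.48 and 8.93. Musk, the kinase that Lrp4 activates, differed by 0.47 ± 0.23 and Rapsn, which clusters the receptors, by 0.25 ± 0.25, with overlap between the groups for Rapsn. The 2 genes that lay lower in both AAV-Galgt2 arrays were Nrg1 (-0.35 ± 0.21), the neuregulin ligand, which was dim, and Gabpa (-0.41 ± 0.18), a subunit of the GABP transcription factor.

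GABP binds the N-box, a short element with the letters CCGGAA that is known to drive synaptic transcription of Chrne. The start region of Chrne on the minus strand of GRCm38.p6, chr11:70619145-70619444, is shown from RefSeq with that motif in capitals, because Chrne was higher in both AAV-Galgt2 arrays while Gabpa was lower.
Chrne: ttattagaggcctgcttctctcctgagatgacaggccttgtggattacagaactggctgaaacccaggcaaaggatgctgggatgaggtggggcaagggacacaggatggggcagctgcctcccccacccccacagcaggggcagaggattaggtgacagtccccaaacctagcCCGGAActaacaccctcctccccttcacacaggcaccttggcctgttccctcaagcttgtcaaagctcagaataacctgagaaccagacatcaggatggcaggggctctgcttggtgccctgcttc
The motif begins 76 bp upstream of the annotated start. On either strand CCGGAA was found in the windows of 4 of the 14 junction genes that have one in the table, Chrne, Erbb4, Gabpa and Prkar1a, beside 16.7% of 27025 genes. These matches describe letters only, and Erbb4 (0.03 ± 0.21) and Prkar1a (0.17 ± 0.21), both overlapping between the groups, change sign when the arrays are shifted to the same median.

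At the fibre membrane, the complex around dystroglycan gave mixed values. Of 15 measured genes, 12 had a positive difference, 9 had no overlap in the higher direction and 3 in the lower, the median was 0.28 (0.17 without PBS replicate 1, 0.46 without PBS replicate 2), and 0 were called. Dag1, which encodes dystroglycan, the protein Galgt2 modifies, read 10.81 and 10.96 against 9.84 and 10.23 (0.86 ± 0.21, 1.81-fold). Nos1, the neuronal nitric oxide synthase that docks on the complex, read 6.93 and 7.32 against 4.68 and 5.80 (1.88 ± 0.39). Its other probe sets gave smaller differences of 1.23, 0.61 and -0.20. Plec, the cytolinker plectin, read 11.51 and 11.52 against 9.03 and 10.53 (1.73 ± 0.48). PBS replicate 1 was the lowest array for all 3, and without it the differences were 0.66, 1.32 and 0.98. Sgca (alpha-sarcoglycan) differed by 0.66 ± 0.22, Sgcb by -0.05 ± 0.17 and Sgcd by -0.58 ± 0.22, with Sgcd lower in both treated arrays at 5.73 and 5.32 against 5.99 and 6.22. These 3 sarcoglycan chains thus lay on different sides of 0.

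Integrins and their linkers are the other route from laminin to the fibre interior. Of 20 measured, 16 had a positive difference, 11 had no overlap in the higher direction and 3 in the lower, with a median of 0.37 (0.27 without PBS replicate 1) and 0 called. Itga7, the laminin-binding integrin chain of muscle, read 7.04 and 7.02 against 5.92 and 6.35 (0.89 ± 0.22). Flnc, filamin C, read 8.95 and 8.38 against 7.15 and 7.61 (1.29 ± 0.28), and Itgb5 read 8.10 and 8.06 against 7.33 and 7.46 (0.69 ± 0.18). These 3 genes had no overlap between the groups. Itgb1, the partner chain of Itga7, was slightly lower in both treated arrays, at 9.37 and 9.35 against 9.45 and 9.70 (-0.22 ± 0.19).

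The enzymes that build the laminin-binding glycan of dystroglycan gave a median of 0.17 over 12 genes. It was 0.086 without AAV-Galgt2 replicate 2 and turned negative when the arrays were shifted to the same median. Of the 12, 3 had no overlap in the higher direction (25%) and 2 in the lower (16.7%), beside 25.3% and 18.6% of all genes. Pomgnt2 (6.09 and 6.15 against 5.32 and 5.39) and B4gat1 (8.14 and 8.50 against 7.34 and 7.77), which extend that glycan, were higher in both treated arrays. Rxylt1 (7.91 and 7.68 against 8.54 and 8.05), a xylosyltransferase of the same chain, was lower in both. Among 23 other GalNAc and sialic acid transferases and related genes, 8 had no overlap in the higher direction and 4 in the lower, and their median of 0.13 turned negative under both other scalings. It was 0.013 without PBS replicate 1, 0.21 without PBS replicate 2 and 0.049 without AAV-Galgt2 replicate 2. Cmah makes the sialic acid N-glycolylneuraminic acid, part of the sugar structure that Galgt2 modifies, and read 8.16 and 7.28 against 8.42 and 8.40 (-0.69 ± 0.31). Galnt10, which starts mucin-type glycans, read 5.30 and 5.02 against 4.26 and 4.28 (0.89 ± 0.19).

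Collagens of the interstitial matrix were also higher. Of 20 genes for fibrillar and type VI collagens and their modifying enzymes, 19 had a positive difference, 15 had no overlap in the higher direction and none in the lower, and the median was 0.64 (0.43 without PBS replicate 1, 0.86 without PBS replicate 2), with 0 called. Col5a1 read 9.50 and 9.77 against 7.77 and 8.28, Col5a3 6.99 and 6.90 against 6.05 and 5.92, and Col6a2 10.25 and 9.96 against 8.83 and 9.15. Col6a1 (0.89 ± 0.20) and Col6a3 (0.85 ± 0.19), the other chains of type VI collagen, were higher in both treated arrays as well. The main fibrillar collagens differed less. Col1a1 read 11.28 and 11.60 against 11.02 and 11.02, Col1a2 differed by 0.73 ± 0.23, and Col3a1 overlapped between the groups at 12.09 and 12.22 against 12.15 and 12.05.

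Of 25 fibrosis and matricellular genes, 14 had no overlap in the higher direction and 4 in the lower. Their median of 0.35 was 0.13 without PBS replicate 1 and 0.53 without PBS replicate 2. Fmod, the collagen-binding proteoglycan fibromodulin, read 12.41 and 12.71 against 11.36 and 11.49 (1.14 ± 0.20). Ltbp2 (6.08 and 5.65 against 4.57 and 4.70) and Ltbp4 (5.13 and 4.83 against 3.71 and 3.90), which bind matrix microfibrils and latent TGF-beta respectively, were higher in both treated arrays. Among 17 matrix proteases and inhibitors 7 had no overlap, all higher, including the gelatinase Mmp2 (10.24 and 10.18 against 9.25 and 9.40), with a median of 0.23 that was 0.075 without PBS replicate 1, 0.83 without PBS replicate 2 and 0.40 without AAV-Galgt2 replicate 1. Tendon markers were also higher: 14 of 14 had a positive difference, 8 had no overlap, and the median was 0.67 (0.46 without PBS replicate 1, 0.39 without AAV-Galgt2 replicate 2). Their summed intensity was 13.89 and 14.18 in the AAV-Galgt2 arrays and 13.33 and 13.39 in the PBS arrays (log2 of the sum). Comp read 6.71 and 7.39 against 4.82 and 5.22, and Chad, chondroadherin, 6.54 and 7.56 against 4.01 and 5.05. No deposited value is 0, so a value above 0 does not show that a tendon marker is expressed. The part of tendon tissue in the collagen values was not tested. In whole muscle, fewer or more cells of a type and less or more RNA per cell cannot be told apart.

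**Figure D2:**
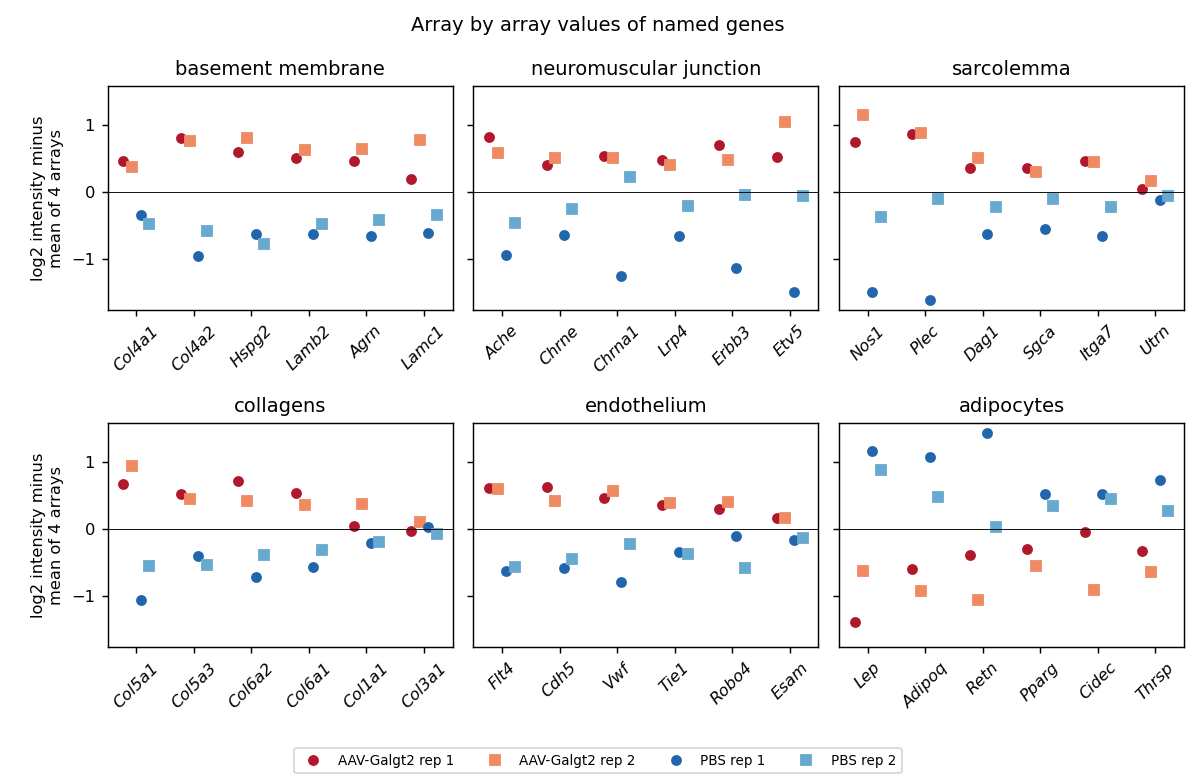
Log2 intensity of named genes in each of the 4 arrays, as the deviation from the mean of the 4 arrays, in panels by gene group (AAV-Galgt2 in red, PBS in blue). The genes drawn were chosen after their values were seen. The 6 basement membrane and 6 endothelial genes drawn and the collagen genes other than Col3a1 have both AAV-Galgt2 arrays above both PBS arrays. The 6 adipocyte genes drawn have them below. In the full lists this held for 14 of 22 basement membrane, 12 of 18 endothelial, 15 of 20 collagen and 8 of 15 adipocyte genes. The reverse held for 1, 0, 0 and 2 of them. PBS replicate 1 is the lowest array for the membrane genes Nos1 and Plec and the junction genes Chrna1, Erbb3 and Etv5.

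Adipocyte genes ran the other way. Of 15 measured, 8 lay lower in both AAV-Galgt2 arrays and 2 higher, beside 18.6% of all genes lower and 25.3% higher, and the median was -0.33 (-0.37 without PBS replicate 1). The count at an unadjusted p under 0.05 was 7 lower and 1 higher, with 0 called. Lep had unlogged intensities of 53.3 and 90.1 against 311 and 255 (4.07-fold lower on the log2 means). On the log2 scale, Adipoq read 8.66 and 8.33 against 10.33 and 9.73 (2.89-fold lower). Retn, the adipokine resistin, read 7.83 and 7.17 against 9.65 and 8.25. Pparg, the master transcription factor of fat cells, read 6.39 and 6.14 against 7.22 and 7.04 (-0.86 ± 0.20). The lipid droplet gene Cidec (-0.97 ± 0.31) and the lipogenic regulator Thrsp (-0.98 ± 0.24) were also lower in both treated arrays. Fasn, fatty acid synthase, was an exception at 5.76 and 5.51 against 4.99 and 5.02 (0.63 ± 0.19), and Plin4 (-0.07 ± 0.23) overlapped between the groups. The summed intensity of the list was 13.58 and 13.61 with AAV-Galgt2 and 13.96 and 13.80 with PBS.

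Endothelial genes were higher in both treated arrays for 12 of 18 and lower for 0, with a median of 0.35 (0.45 without PBS replicate 1). Cdh5, the cadherin of endothelial junctions, read 6.31 and 6.10 against 5.09 and 5.22 (1.04 ± 0.19), Vwf, von Willebrand factor, 7.40 and 7.52 against 6.16 and 6.72, and Tie1, a receptor kinase, 6.16 and 6.20 against 5.47 and 5.43. Flt4 read 7.22 and 7.20 against 5.98 and 6.03. The groups did not overlap for any of these genes, and the summed intensity of the list was 12.68 and 12.72 against 12.48 and 12.36. Endothelial cells lie on basement membrane and make type IV collagen and perlecan, and the part of this cell type in the basement membrane values was not tested. Of 14 smooth muscle and pericyte genes, 9 were higher in both treated arrays and 1 lower, with a median of 0.38. Notch3, a receptor of mural cells, read 8.38 and 9.12 against 6.36 and 7.53 (1.81 ± 0.45), and Pdgfrb 6.80 and 7.37 against 6.32 and 5.89 (0.98 ± 0.27). Schwann cell and nerve genes gave a median of 0.32 (0.15 without PBS replicate 2), with 6 of 14 without overlap in the higher direction, 0 in the lower and 0 at an unadjusted p under 0.05.

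Macrophage genes, the main inflammatory signature of dystrophic muscle, depended on which control array they were set against. Of 34, 1 lay higher and 7 lower in both AAV-Galgt2 arrays, with a median of -0.06. The median was -0.47 without PBS replicate 1, 0.31 without PBS replicate 2, -0.15 without AAV-Galgt2 replicate 1 and 0.04 without AAV-Galgt2 replicate 2. Cd68, a lysosomal macrophage marker, read 9.41 and 9.16 against 7.77 and 9.78. The summed intensity of the list was 15.06 and 14.89 with AAV-Galgt2, and 14.82 and 15.34 in PBS replicates 1 and 2. Cd163, a scavenger receptor of resident macrophages, was 1 of the 7 lower in both treated arrays, at 9.59 and 9.62 against 10.04 and 10.50 (-0.67 ± 0.22). These 7 are 20.6% of the list, beside 18.6% of all genes, and the 1 higher is 2.94%, beside 25.3%. Of 17 neutrophil and mast cell genes, 1 was higher and 5 were lower in both treated arrays. PBS replicate 2 held the highest sum of that list, 11.60 beside 9.14 to 10.05 in the other arrays, and the neutrophil chemokine Cxcl2 read 8.67 there and 3.81 to 4.44 elsewhere. The mast cell protease genes Mcpt4 (4.98 and 4.54 against 5.56 and 5.28) and Cpa3 (7.20 and 6.14 against 8.15 and 7.24) were lower on average with AAV-Galgt2, with no overlap between the groups for both.

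Lymphocyte genes were dim. T and NK cell genes had 7 of 17 higher in both treated arrays and 0 lower (median 0.25, 0.14 without PBS replicate 1 and 0.39 without PBS replicate 2), among them Cd2 (5.69 and 6.16 against 5.22 and 5.37) and Cd3e (5.07 and 5.16 against 4.71 and 4.65). Of the 17, 3 had a group mean above the median level. With only genes above the median level kept, this median changed sign. So did those of chemokines and cytokines, red blood cells and skin epithelium, given below. Among 12 B and plasma cell genes 2 were higher in both (16.7%) and 1 was lower (8.33%), beside 25.3% and 18.6% of all genes. Ighm, the heavy chain of immunoglobulin M, read 8.13 and 8.41 against 7.62 and 7.47. Interferon response genes were higher in both treated arrays for 16 of 27 and lower for 0, with a median of 0.23 (0.27 without PBS replicate 1, 0.38 without PBS replicate 2, 0.37 without AAV-Galgt2 replicate 2) and 0 called. Stat2, which carries the type I interferon signal, read 6.61 and 6.43 against 5.30 and 5.70 (1.02 ± 0.22), Oasl2 7.58 and 7.26 against 6.20 and 6.72, and Irf7 6.32 and 6.27 against 5.50 and 5.74. The groups were separate for these genes, while Ifit1 overlapped at 8.69 and 8.65 against 8.83 and 8.53. Of 17 sensors of viral nucleic acid and their adaptors, 4 were higher in both treated arrays (23.5%) and 2 lower (11.8%), beside 25.3% and 18.6% of all genes. The 2 lower were Tlr4 (-0.61 ± 0.23) and Tlr7 (-0.52 ± 0.20). Antigen presentation genes had a median of 0.22 that was 0.00 without PBS replicate 1 and 0.48 without PBS replicate 2. Complement genes had a median of 0.09 that turned negative under both other scalings, and it was -0.16 without PBS replicate 1, 0.52 without PBS replicate 2, -0.035 without AAV-Galgt2 replicate 1 and 0.24 without AAV-Galgt2 replicate 2. Chemokines and cytokines had a median of -0.07, which was -0.30 without PBS replicate 1, 0.41 without PBS replicate 2, -0.22 without AAV-Galgt2 replicate 1 and 0.04 without AAV-Galgt2 replicate 2. Markers of red blood cells gave 0.04 over 6 genes, which turned negative with the arrays shifted to the same median and without AAV-Galgt2 replicate 1 (-0.012), and was 0.25 without PBS replicate 1 and 0.28 without AAV-Galgt2 replicate 2. Those of skin epithelium gave -0.21 over 15, and values from -0.34 to 0 with 1 array left out.

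The lists of muscle fibre genes gave medians between -0.10 and 0.36. Fast fibre genes had 11 of 19 higher in both treated arrays and 0 lower, but 0 at an unadjusted p under 0.05, and their median of 0.15 turned negative when the arrays were shifted to the same median and was 0.098 without PBS replicate 2 and 0.086 without AAV-Galgt2 replicate 1. Slow fibre genes had a median of 0.15 that turned negative under that scaling, without PBS replicate 2 (-0.019) and without AAV-Galgt2 replicate 2 (-0.068), and was 0.33 without PBS replicate 1 and 0.27 without AAV-Galgt2 replicate 1. The slow myosin Myh7 read 10.70 and 11.21 against 10.39 and 10.03, and Atp2a2, the slow calcium pump, 11.14 and 11.39 against 10.71 and 10.60. Calcium handling genes were higher in both treated arrays for 14 of 22 and lower for 1 (median 0.36, and 0.21 without PBS replicate 1). Stim1, which triggers store-operated calcium entry, read 8.41 and 8.74 against 7.33 and 7.67 (1.08 ± 0.22), and Cacna1s, the voltage sensor of excitation-contraction coupling, 8.78 and 8.72 against 7.91 and 8.04 (0.78 ± 0.18). Glycolysis and glycogen genes had 12 of 19 higher in both and 0 lower, with Gys1, glycogen synthase, at 8.48 and 8.12 against 7.04 and 7.30, while their median of 0.16 turned negative with the arrays shifted to the same median. The respiratory chain gave -0.10 over 29 genes, 0.04 without PBS replicate 1 and -0.23 without PBS replicate 2. Genes of fatty acid use gave 0.15 (0.29 without PBS replicate 1, 0.089 without PBS replicate 2), which turned negative under the same shift, with 8 of 17 higher in both treated arrays and 2 lower.

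Regulators of regeneration had a median of 0.22 (0.11 without PBS replicate 1, 0.57 without PBS replicate 2), with 11 of 23 higher in both treated arrays and 3 lower. Pax7, the satellite cell transcription factor, read 7.81 and 8.34 against 6.96 and 7.38 (0.91 ± 0.27). Embryonic sarcomere genes had 7 of 15 higher and 1 lower: Myh8, the perinatal myosin, read 7.64 and 8.21 against 6.75 and 7.45, and Myh3, the embryonic myosin, 8.92 and 9.38 against 6.89 and 8.86, with PBS replicate 1 the lowest array for both. Costamere and stretch genes such as Xirp1 (9.24 and 9.30 against 7.90 and 8.49) had 7 of 20 higher and 0 lower. Cell cycle genes gave a median of 0.30 that was -0.19 without PBS replicate 1 and 0.64 without PBS replicate 2. Membrane repair genes gave 0.09, which turned negative under both other scalings, without PBS replicate 1 (-0.20) and without AAV-Galgt2 replicate 1 (-0.054). It was 0.26 without PBS replicate 2 and 0.23 without AAV-Galgt2 replicate 2, and Dysf, dysferlin, read 9.27 and 9.03 against 7.47 and 8.58.

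Immediate early genes, which respond to activity and injury within minutes, were higher in both treated arrays for 11 of 21 and lower for 0, with a median of 0.49 (0.26 without PBS replicate 1, 0.33 without AAV-Galgt2 replicate 2). Egr3 read 6.12 and 6.93 against 5.22 and 5.65, and Egr1 10.41 and 10.92 against 9.15 and 10.22. Clock genes had 9 of 17 higher and 2 lower (median 0.39, and 0.24 without PBS replicate 1). Nr1d1 read 7.71 and 7.62 against 6.26 and 6.32, Bhlhe40 9.67 and 9.95 against 8.71 and 9.14, and Per1 6.83 and 6.80 against 5.83 and 6.28. The arrays of these 3 genes did not overlap between the groups. The chaperone Bag3 read 8.35 and 8.31 against 7.36 and 7.34 (0.98 ± 0.17), although heat shock genes as a list had a median of 0.16 that was 0.024 without PBS replicate 1 and turned negative with the arrays shifted to the same median. Among genes of the unfolded protein response, 5 of 23 were higher in both treated arrays (21.7%) and 1 lower (4.35%), beside 25.3% and 18.6% of all genes. Their median of 0.05 turned negative under both other scalings. It was -0.12 without PBS replicate 1, 0.30 without PBS replicate 2, -0.0057 without AAV-Galgt2 replicate 1 and 0.16 without AAV-Galgt2 replicate 2. Among 21 atrophy and stress genes 6 were higher (28.6%) and 3 lower (14.3%), beside 25.3% and 18.6% of all genes. Fbxo30, a ubiquitin ligase of muscle wasting, read 9.26 and 8.87 against 10.10 and 9.45. Ribosomal protein genes lay lower in both treated arrays for 9 of 14 and higher for 0, with a median of -0.32 (-0.17 without AAV-Galgt2 replicate 2), as for Rpl11 at 11.30 and 11.25 against 11.84 and 11.88.

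**Figure D3:**
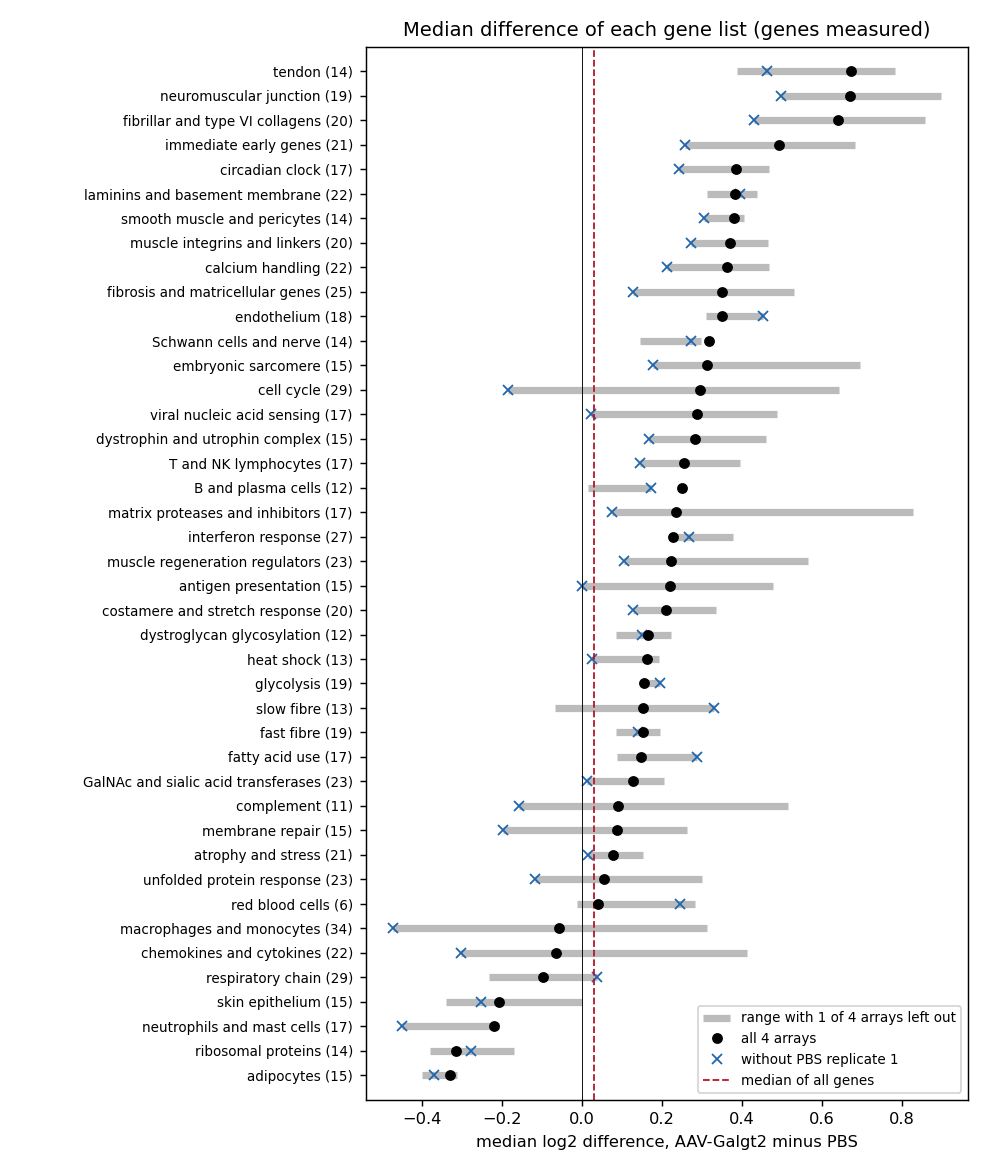
Median log2 difference (AAV-Galgt2 minus PBS) of the measured genes of each list, with the number of genes in brackets, for all 4 arrays (black), without PBS replicate 1 (blue crosses) and as the range over leaving out 1 of the 4 arrays (grey bars). Tendon, junction and collagen genes lie highest at 0.67, 0.67 and 0.64, adipocyte genes lowest at -0.33, and the bar of the macrophage genes spans 0.

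The transgenic mice of the series carry Galgt2 from the germ line, so the AAV difference can be set against the difference between Galgt2 transgenic mdx and untreated mdx muscle. These comparisons share no arrays, and both are differences within one array set. In the fit of 12 arrays, 723 of 18194 genes were higher in transgenic mdx than in mdx muscle (3.97%) and 384 were lower (2.11%). The 723 had a median of 1.41 there and of -0.06 between AAV-Galgt2 and PBS. Of them 132 (18.3%) were higher in both AAV-Galgt2 arrays and 199 (27.5%) lower, beside 25.3% and 18.6% of all genes. The 384 had medians of -1.30 and 0.26, with 22 (5.73%) lower in both AAV-Galgt2 arrays and 163 (42.4%) higher. The list medians can also be set side by side. For the unfolded protein response, whose genes restore protein folding in the endoplasmic reticulum, it was 1.13 for the transgene and 0.05 for AAV. The interferon median was 1.34 against 0.23, the endothelial median -0.83 against 0.35, the cell cycle median -0.84 against 0.30, and the macrophage median -1.08 against -0.06. The laminin and basement membrane median was -0.25 against 0.38 and that of the fibrillar and type VI collagens -0.19 against 0.64. Transgenic mdx mice differ from mdx mice in the strain label as well, and the transgene and the strain cannot be told apart, so the transgene effect below is a name for that difference only.

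The difference between the AAV and the transgene effect was tested directly as an interaction, and 380 genes were called, 163 with the AAV effect above that of the transgene (0.896%) and 217 below it (1.19%). The genes named here as the largest were chosen by size after their values were seen. They were taken among genes whose mean in at least 1 of the compared groups lay above the median level of its array set. Such a gene can be dim in the other groups.

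Of the genes with the AAV effect above that of the transgene, those described next were called lower in transgenic mdx than in mdx muscle, except Nos1. Tlcd3b gave -3.63 ± 0.44 between transgenic mdx and mdx muscle and read 8.76 and 8.54 with AAV-Galgt2 against 6.82 and 7.67 with PBS. Gpnmb, a gene of phagocytic macrophages, gave -4.15 ± 0.56 in that comparison and 0.50 ± 0.61 with AAV. Kcng4, a potassium channel subunit, gave -3.45 ± 0.30 and 0.11 ± 0.22, and Smco1 -3.35 ± 0.30 and -0.11 ± 0.18. Aurka, a mitotic kinase, gave -2.40 ± 0.25 and 0.52 ± 0.20. Actc1, cardiac actin of immature fibres, gave -2.23 ± 0.26 and 0.30 ± 0.20, and Igfbp3 -1.49 ± 0.24 and 0.71 ± 0.24. These AAV errors are from the fit of 4 arrays and the transgene errors from that of 12. For Nos1 the difference between transgenic mdx and mdx muscle was -1.41 ± 0.51 (adjusted p = 0.142) and that with AAV 1.88 ± 0.39.

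The 10 with the AAV effect furthest below that of the transgene read 2.88 to 5.01 in the mdx arrays and were called higher in transgenic mdx muscle. That is also the group through which they passed the level filter, except that BB557941 had a PBS mean above the median level as well. No detection call was used here, so whether the mdx values lie above background was not tested and the sizes below are not exact. With 16 added to every intensity the 10 interactions ran from -5.13 to -2.79, and 9 of 10 were called, all but that of Epgn. Dsp, desmoplakin of cell junctions, differed by 6.11 ± 0.48 between transgenic mdx and mdx muscle and read 3.18 and 4.25 with AAV-Galgt2 against 3.68 and 5.19 with PBS. Gja3, a connexin, gave 5.17 ± 0.27 in that comparison and 0.07 ± 0.31 with AAV. Derl3, which removes misfolded proteins from the endoplasmic reticulum, gave 4.52 ± 0.31 and 0.25 ± 0.22. The mucin Muc15 (4.93 ± 0.23 against 0.18 ± 0.21) and the epidermal gene Lce1f (5.88 ± 0.44 against -0.03 ± 0.21) also were also higher in transgenic mdx muscle and close to 0 with AAV. AF067061 gave 4.93 ± 0.18 and 0.20 ± 0.18. The AAV differences of these genes are each lower by 0.18 with the arrays shifted to the same median, and that of Gja3 then turns negative.

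Several of the leading AAV genes were also called to differ from the transgene effect. They had been picked for a small p between the same AAV-Galgt2 and PBS arrays. That difference is part of the interaction, so these calls are not separate evidence for it. The interaction was 2.00 for Hspg2 (adjusted p = 0.0132), 1.75 for Col4a2 (0.0222), 2.64 for Col5a1 (0.0112), 3.02 for Comp (0.00654), 2.25 for Nr1d1 (0.0263) and -2.29 for Ces1d (0.0494). For Dmd it was -1.53 ± 0.29 (adjusted p = 0.0336): the gene rose by 1.54 ± 0.20 in transgenic mdx muscle and overlapped between AAV-Galgt2 and PBS. For B4galnt2 itself the interaction was not called (-1.71 ± 1.28, adjusted p = 0.508), with 7.49 ± 0.91 between transgenic mdx and mdx muscle. The untreated mdx arrays spread widely for this gene, as given above, so the lack of a call does not show equal effects. The interaction was called for 57 genes of the lists or named for the AAV comparison or by size. Of these, 31 are given by name here or in the closing section. They are Dmd, the largest interactions, the leading AAV genes, and genes whose call was lost without at most 1 array. The genes not given each lost it without more than 1 of the 12 arrays. Of the 57, 14 stayed called whichever of the 12 arrays was left out, all among the 31. Comp, Aurka, Dsp, Gja3, Derl3 and Tlcd3b were among them. Of the 12 arrays, AAV-Galgt2 replicate 2 was the one whose removal ended the call of Hspg2, Col5a1, Actc1, Igfbp3 and Smco1. Col4a2, Nr1d1, Ces1d, Nos1, Gpnmb and Dmd lost it without any of several arrays, both AAV-Galgt2 arrays included for each. With 16 added to every intensity the calls of Nos1 and Ces1d, and of Abcg1, Tafa3 and Epgn in the closing section, were lost. The total of 380 was 41 without AAV-Galgt2 replicate 2, 77 without AAV-Galgt2 replicate 1, 81 without PBS replicate 1, and 1074 without either PBS replicate 2 or mdx replicate 1. It was 132 without either wild-type array, 142 without mdx replicate 2 and 144 without transgenic mdx replicate 2, while without transgenic mdx replicate 1 it was 221.

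**Figure D4:**
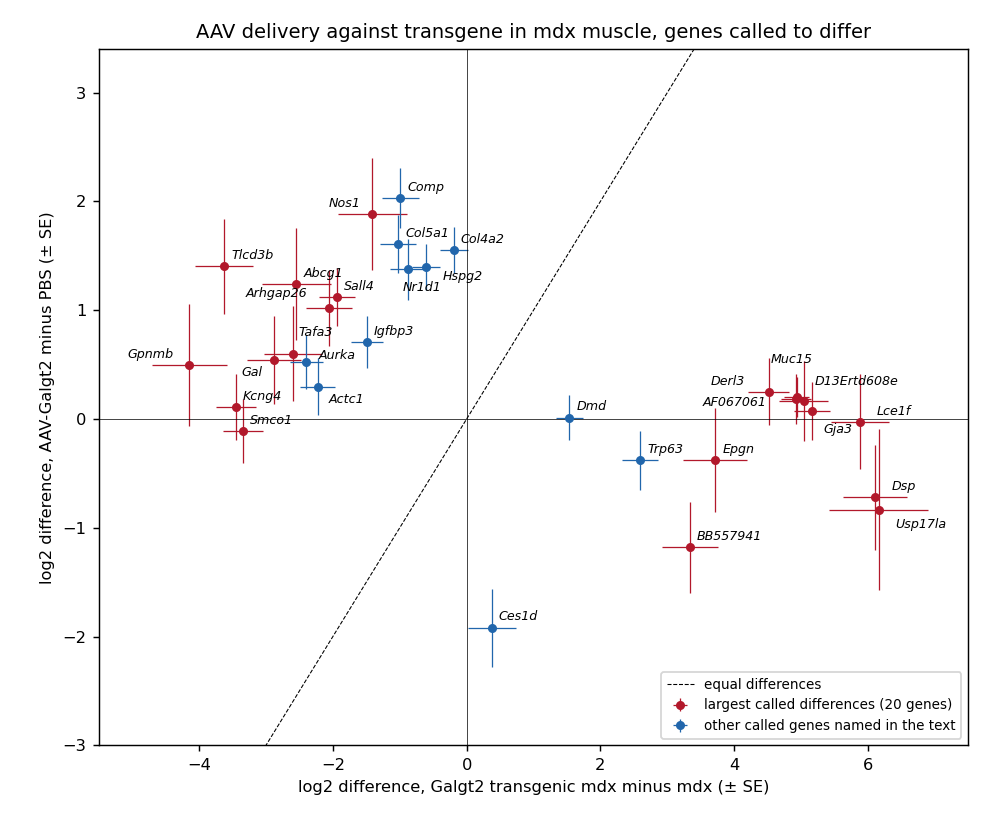
Log2 difference between AAV-Galgt2 and PBS muscle against that between Galgt2 transgenic mdx and mdx muscle, with standard errors from the fit of 12 arrays on both axes, for the 20 largest called differences (red) and other called genes named in the text (blue). Each gene drawn was chosen because its AAV effect was called different from its transgene effect, so unequal values on the axes follow from that choice. Among the genes drawn, those higher in transgenic mdx than in mdx muscle, such as Dsp at 6.11, lie near or below 0 on the AAV axis. Those lower in transgenic mdx muscle, such as Tlcd3b at -3.63, lie mostly above 0. The positions drawn say nothing about genes that were not called.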

How the data were processed

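Total RNA of whole gastrocnemius muscle was measured on mouse expression arrays. The deposited values are intensities per probe set. The submitters' processing notes name GCOS and RMA without versions or roles, and whether the array sets were processed together is not given in the sources used here. The intensities are positive, have no read depth, and were taken as linear and turned into log2. Arrays have no counting error to give, and their number limits the precision. Of 45101 probe sets, 34958 carry 1 gene symbol in the supplied annotation. The brightest over the 12 muscle arrays stood for each of 18194 genes, and 932 probe sets with several symbols and 9211 with none were left out.

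The 4 arrays were fitted with limma 3.58.1 (R 4.3.3), with eBayes and two-sided p-values adjusted by Benjamini-Hochberg over all genes at a threshold of 0.05. The interaction with the transgene was fitted on 12 muscle arrays with 6 group means. The fits were tested on simulated data. Lists were described by counts and medians without a test. The experiment, its members and the 42 gene lists (745 of 828 genes measured) were chosen with earlier results of these data known. Named genes were B4galnt2, Dmd, the 10 of smallest p in each direction (no overlap between groups, higher group above the median level, none called) and up to 3 per list. Any other gene named was chosen after its values were seen. Alternatives were the 12-array fit, the replicate number as a block, other scalings, a level filter, a pseudocount of 16, another probe set rule, another variance prior and leaving out each array. Across the replicate numbers the deviations in AAV-Galgt2 and PBS correlated at -0.05 over genes. The other possible pairing only reverses the sign of this value, so it cannot tell which arrays share a mouse. The main fit left the arrays unpaired. Start regions came from the RefSeq tables for GRCm38.p6.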

Additional observations from a re-analysis of the deposited data

Results flagged for a closer look

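The effect of AAV-Galgt2 (against PBS) differed from that of the transgene (transgenic mdx against mdx) at an adjusted p under 0.05 in limma for each gene in this section, and the values are the first log2 difference minus the second.

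Above the transgene effect lay Tlcd3b (5.03), Gpnmb (4.65), Abcg1 (3.78), a cholesterol exporter of macrophages, Kcng4 (3.56), Gal (3.43), the neuropeptide galanin, Nos1 (3.29), Smco1 (3.24), Tafa3 (3.19), Arhgap26 (3.08), Sall4 (3.06), Comp (3.02), Aurka (2.92), Col5a1 (2.64), Actc1 (2.52), Nr1d1 (2.25), Igfbp3 (2.20), Hspg2 (2.00) and Col4a2 (1.75). Abcg1 read 9.44 and 9.78 with AAV-Galgt2 against 7.38 and 9.37 with PBS, and PBS replicate 1 was the lowest array. Gal overlapped between the groups, at 6.82 and 6.62 against 5.41 and 6.94. Sall4 and Arhgap26 were higher in both treated arrays, by 1.12 ± 0.21 and 1.02 ± 0.27, and lower in transgenic mdx than in mdx muscle, with differences of -1.94 ± 0.27 and -2.06 ± 0.35.

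Below it lay Usp17la (-6.99), Dsp (-6.83), Lce1f (-5.91), Gja3 (-5.10), D13Ertd608e (-4.87), Muc15 (-4.74), AF067061 (-4.73), BB557941 (-4.52), Derl3 (-4.27), Epgn (-4.09), a growth factor of epithelia, Trp63 (-2.98), an epithelial transcription factor, Ces1d (-2.29) and Dmd (-1.53). BB557941 read 5.45 and 4.38 with AAV-Galgt2 against 6.57 and 5.62 with PBS, and rose by 3.34 ± 0.42 in transgenic mdx over mdx muscle. Without 1 of the AAV-Galgt2 arrays, Gpnmb, Abcg1, Gal, Nos1, Tafa3, Arhgap26, Nr1d1, Col4a2, Usp17la, Epgn, Ces1d and Dmd lost the call whichever of them was left out.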

How the results depend on the processing

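Between AAV-Galgt2 and PBS the count of called genes was 0 in the 4-array fit (1868 at an unadjusted p under 0.05) and 2, 1 and 1 with the arrays shifted to the same median, with genes above the median level only and with the trend and robust prior. B4galnt2 passed in these 3, at 5.60, 5.78 and 5.78, and ran from 5.27 to 6.29 with 1 array left out. The second called gene, with the arrays shifted, was Lrmda at -3.11. With the replicate number as a block 0 genes were called. Dmd changed sign to -0.17 with the arrays shifted to the same median, -0.079 after quantile normalization and -0.033 with its other probe set, and ran from -0.14 to 0.16 with 1 array left out. Cxcl2 ran from -4.54 to 0.069 with 1 array left out, the last without PBS replicate 2. The cause of these changes was not tested. Of 43 medians, those of the lists and of all genes, 13 changed sign with the arrays shifted, 5 after quantile normalization and 5 without PBS replicate 1. With genes above the median level only, 4 changed sign.

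For the AAV effect minus the transgene effect, 380 genes were called, 651 with the arrays shifted to the same median, of which 350 were among the 380, and 123 with the replicate block, of which 115 were. The split of higher against lower calls was 163 against 217, and 169 of 651 were higher with the arrays shifted. The count ran from 41 to 1074 with 1 array left out. Of the genes given one by one, Dmd (adjusted p = 0.0616), Col4a2, Nr1d1, Nos1, Ces1d, Igfbp3, Tafa3 and Arhgap26 were not called with the replicate block. Whether the replicate numbers pair the arrays is not given in the sources used here.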
